A study of Mus musculus with 35 samples.

Results

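The genes described here are the Bcl2 family members that set whether a T cell survives or dies through its mitochondria. The 10 members were taken by name from the 38924 genes measured: the survival genes Bcl2, Bcl2l1, Mcl1, Bcl2a1b and Bcl2a1d, the death triggers Bcl2l11, Pmaip1 and Bbc3, and the pore formers Bax and Bak1. They were followed across 35 RNA sequencing libraries of CD8 T cells from C57BL/6 mice, sorted for high CD44 and low CD62L, the surface marks of antigen-experienced T cells. All sorted cells carried CD3e and CD8, and neither a mutation nor a transgene is named in the labels. Stimulation was a 2 h incubation with PMA, a phorbol ester, and ionomycin, a calcium ionophore, which together mimic signalling through the T cell receptor.

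The groups were stimulated brain cells of aged females (5 libraries), stimulated brain cells of aged males (4), unstimulated brain cells of aged females (5), unstimulated brain cells of aged males (6), unstimulated brain cells of young males (5), stimulated spleen cells of aged males (5) and unstimulated spleen cells of aged males (5). Libraries are called here by the number in their title. Titles also end in an S number, whose meaning the labels do not give. No S number repeats within unstimulated male brain, nor within unstimulated female brain with stimulated brain libraries 19 to 25. The same holds for spleen with female libraries 26 and 27. S numbers do repeat between these sets, so a comparison across them cannot tell set from condition. Nothing in the labels says whether libraries came from separate animals or from pools, so p-values measure the spread between libraries only, and ages are given as aged or young with no number.

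Bcl2 family proteins act on the outer membrane of the mitochondrion. Survival members hold the pore formers Bax and Bak1 in check, and the death triggers, called BH3-only proteins, block the survival members or activate the pore formers, so that cytochrome c leaves and caspases start. In T cells, Bcl2 and Mcl1 keep memory cells alive, the Bcl2a1 genes and Bcl2l1 are known to rise on activation, and Bcl2l11 (Bim) is known for removing effector cells after a response.

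On the mouse build GRCm38, which is also called mm10, Bcl2 lies at chr1:106538178-106714274, Bcl2l11 at chr2:128126038-128162547 and Bcl2l1 at chr2:152780668-152831728. Mcl1 lies at chr3:95658788-95663176, Bbc3 at chr7:16308393-16318205, Bax at chr7:45461697-45466898 and Bak1 at chr17:27019810-27029009. Bcl2a1d at chr9:88723285-88731914 and Bcl2a1b at chr9:89199209-89207827 are copies of 1 gene, with a further copy, Bcl2a1a, between them. Pmaip1 is on chromosome 18. All 10 are annotated as protein-coding.

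Library totals ran from 1.16 to 24.97 M counts, and the libraries of stimulated brain cells stood apart from the rest. Mitochondrially encoded genes took 38.5 to 69.7% of the counts there, against 8.28 to 20.8% in the other groups. A median of 6 members was detected in stimulated female brain libraries and 4.5 in stimulated male ones, against 10 in both spleen groups. The 8 CD8 T cell markers summed to 861 to 2329 CPM in stimulated female brain and 183 to 583 CPM in stimulated male brain, against 1410 to 5952 CPM over the other groups, and none of the 8 was at 0 throughout a group. CPM is a gene's count relative to the library's total, per M counts, after scaling all 35 libraries to each other. Male stimulated brain libraries 20, 21 and 22 held no count of 5 sex-linked genes, and female library 27 held 1, so the labelled sex of these 4 could not be checked. A count of 0 allows up to 0.569 to 2.99 CPM in stimulated male brain and 0.254 to 0.398 CPM in stimulated spleen, from 3 counts, covering counting error only. In bulk libraries fewer cells of a type and less RNA per cell cannot be told apart.

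**Figure D1:**
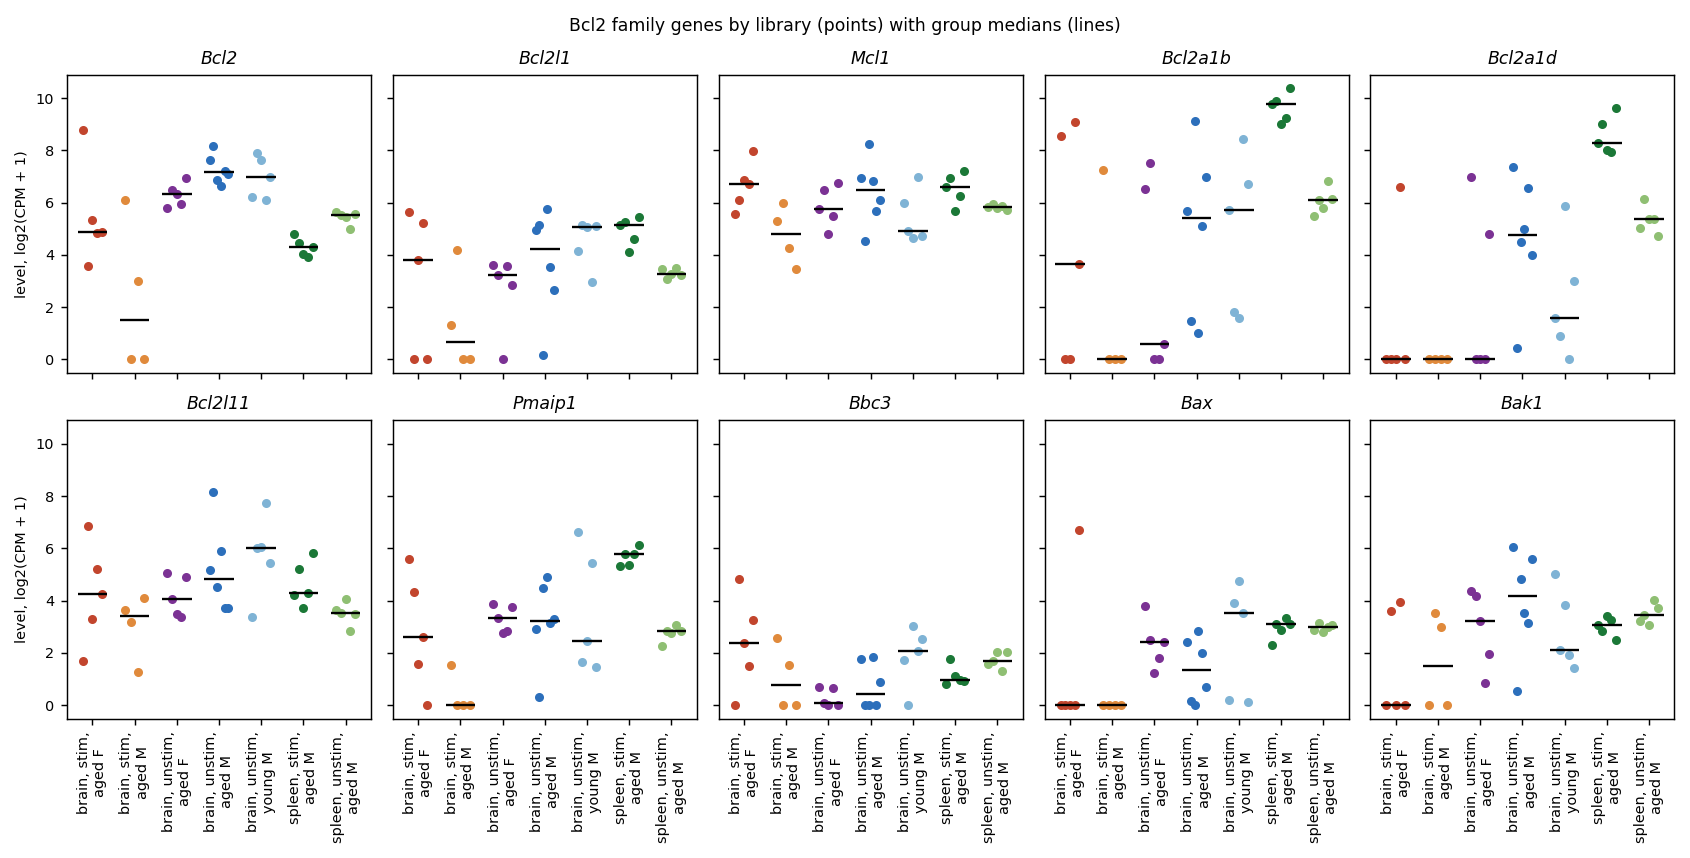
Level of each Bcl2 family gene, as log2(CPM + 1), in each library (points) of the 7 groups, with the group median (line); F is female and M is male. Spleen points lie close together within a group, while brain points of Bcl2a1b run from 0 to 557 CPM, and the medians of both Bcl2a1 copies and Pmaip1 are highest in stimulated spleen.

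Stimulation of spleen cells asks which survival and death genes answer the drugs. Both kinds rose together: the Bcl2a1 copies and Pmaip1 rose most, Bcl2l1, Bcl2l11 and Mcl1 rose less, and Bcl2 fell. The pore formers Bax and Bak1 and the trigger Bbc3 did not pass the test. Calls are adjusted p-values below 0.05 in edgeR's two-sided quasi-likelihood test, adjusted by Benjamini-Hochberg over all 11107 genes tested. With this rule 7 of the 10 members were called, against 18.7% of all genes, 6 of them higher (12.6% of all genes) and 1 lower (6.12% of all genes). The median log2 fold change was 1.07 over the members and -0.07 over all genes.

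Bcl2a1b, a short-lived survival protein known as A1, stood at 874, 938, 512, 597 and 1337 CPM in stimulated spleen libraries, against 43.7, 67.4, 54.03, 111 and 68.8 CPM in unstimulated ones. Its copy Bcl2a1d stood at 315, 515, 260.4, 246 and 782 CPM in stimulated libraries, against 31.6, 68.9, 40.2, 40.2 and 25.3 CPM in unstimulated ones. Every stimulated library lay above every unstimulated library for both copies, and library 40 was the highest for both. The log2 fold change was 3.60 ± 0.31 for Bcl2a1b (SE, adjusted p = 6.1e-06, edgeR, n = 5 each) and 3.34 ± 0.38 for Bcl2a1d (adjusted p = 8.8e-05). The copies share much of their sequence: 57.6% of the 50-base windows of the longest Bcl2a1b transcript also occur in Bcl2a1d transcripts, so single values of a copy are uncertain. Summed over Bcl2a1a, Bcl2a1b, Bcl2a1c and Bcl2a1d, the change was 3.39 ± 0.32 on the log2 scale, as large as for the single copies (adjusted p = 1.2e-05, edgeR; the fit of all 7 groups below gave up to 1.0 for these genes).

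Printed here are promoter windows that hold a searched motif, from members that moved in spleen. Pmaip1 moved as well but had no window among those searched. The windows of Mcl1 and Bcl2, which moved too, and the other windows of Bcl2l1 and Bcl2l11 held no searched motif and are not printed. All are RefSeq windows on GRCm38.p6 from 250 bases before to 50 after an annotated start, read 5′ to 3′ on the gene's strand. The Bcl2a1b window is chr9:89199023-89199322 on the plus strand, and that of Bcl2a1d is chr9:88731801-88732100 on the minus strand. One window of Bcl2l1 is chr2:152830668-152830967 on the minus strand, and one of Bcl2l11 is chr2:128125788-128126087 on the plus strand. Capitals mark a match to TGANTCA in the Bcl2a1 copies, an NF-kB consensus match in Bcl2l1 and the forkhead motif GTAAACA in Bcl2l11. TGANTCA is a loose AP-1 pattern in which N is any base, and it reads TGAATCA in both copies.
Bcl2a1b: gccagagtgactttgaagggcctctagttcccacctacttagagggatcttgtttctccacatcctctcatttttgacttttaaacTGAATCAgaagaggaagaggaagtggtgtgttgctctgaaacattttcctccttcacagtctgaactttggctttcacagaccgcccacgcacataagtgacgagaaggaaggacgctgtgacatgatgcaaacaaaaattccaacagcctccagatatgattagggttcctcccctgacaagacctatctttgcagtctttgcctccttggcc
Bcl2a1d: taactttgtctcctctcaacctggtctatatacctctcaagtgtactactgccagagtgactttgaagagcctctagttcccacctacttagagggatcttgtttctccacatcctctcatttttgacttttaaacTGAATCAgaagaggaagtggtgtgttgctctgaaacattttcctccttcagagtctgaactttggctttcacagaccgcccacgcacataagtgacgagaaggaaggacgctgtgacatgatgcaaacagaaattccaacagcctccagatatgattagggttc
Bcl2l1: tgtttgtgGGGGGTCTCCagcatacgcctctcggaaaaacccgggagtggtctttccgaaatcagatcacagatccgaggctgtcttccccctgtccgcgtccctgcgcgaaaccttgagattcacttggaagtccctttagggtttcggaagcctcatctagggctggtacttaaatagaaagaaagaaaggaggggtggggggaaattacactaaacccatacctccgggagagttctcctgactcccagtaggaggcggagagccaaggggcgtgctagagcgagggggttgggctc
Bcl2l11: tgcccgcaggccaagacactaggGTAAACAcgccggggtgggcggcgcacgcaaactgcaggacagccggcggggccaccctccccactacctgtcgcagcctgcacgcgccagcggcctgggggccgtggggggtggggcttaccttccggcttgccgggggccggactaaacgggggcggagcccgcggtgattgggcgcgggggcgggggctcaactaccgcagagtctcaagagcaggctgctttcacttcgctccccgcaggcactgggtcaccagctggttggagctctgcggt

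Motifs were searched on both strands, and a match is a description of letters, not a site. The RefSeq starts of both Bcl2a1 copies lie inside the gene positions given above. From these starts, the TGANTCA pattern lies at bases -164 to -158 in Bcl2a1b and -114 to -108 in Bcl2a1d. Of 32851 promoter windows, 7.81% hold it, and among the 14 windows of 9 members it occurs in those of the Bcl2a1 copies alone. These windows are 96.5% identical over 256 aligned columns, gaps counted as differences. The NF-kB consensus occurs in 8.46% of all windows and in 1 window each of Bcl2l1 (bases -242 to -233) and Bbc3, and the matches in Bbc3 lie on both strands and overlap each other. The forkhead motif occurs in 3.65% of all windows and in 1 window each of Bcl2l11 (bases -227 to -221) and Bbc3. The cyclic AMP response motif TGACGTCA occurs in 1.79% of all windows and in none of the members' windows.

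Among the remaining survival members, Bcl2l1 (Bcl-xL) stood at 34.7, 37.9, 16.5, 23.2 and 42.9 CPM in stimulated spleen, against 10.05, 7.54, 8.55, 10.3 and 8.32 CPM in unstimulated spleen. The groups did not overlap in CPM, and the log2 fold change was 1.76 ± 0.26 (adjusted p = 0.00053, edgeR, n = 5 each). Mcl1, a survival protein with rapid turnover, stood at 96.7, 122, 50.1, 75.3 and 149 CPM in stimulated libraries, against 56.7, 60.3, 53.97, 57.6 and 52.2 CPM in unstimulated ones. Library 38 lay below all 5 unstimulated libraries, so the groups overlapped, and the log2 fold change of 0.79 ± 0.24 passed narrowly (adjusted p = 0.038, edgeR). Bcl2 moved the other way, with 26.8, 21.2, 15.4, 14.2 and 18.7 CPM in stimulated libraries, against 49.5, 45.1, 43.3, 31.1 and 47.004 CPM in unstimulated ones. All stimulated values lay below all unstimulated values, and the log2 fold change was -1.20 ± 0.20 (adjusted p = 0.0014, edgeR).

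Of the 3 death triggers, Pmaip1 and Bcl2l11 rose and Bbc3 did not pass the test. Pmaip1 (Noxa), which binds Mcl1 and the Bcl2a1 proteins, stood at 39.2, 53.4, 40.5, 53.6 and 68.1 CPM in stimulated spleen, against 3.83, 6.08, 5.82, 7.35 and 6.21 CPM in unstimulated spleen. The groups were far apart, with a log2 fold change of 3.09 ± 0.23 (adjusted p = 1.3e-06, edgeR, n = 5 each). Bcl2l11 stood at 17.5, 35.9, 12.1, 18.3 and 55.2 CPM in stimulated libraries, against 11.5, 10.6, 15.5, 6.19 and 10.1 CPM in unstimulated ones. Libraries 37 and 40 were high, library 38 lay inside the unstimulated range, and the log2 fold change was 1.35 ± 0.40 (adjusted p = 0.033, edgeR). Bbc3 (Puma), a target of p53, stood at 0.761, 2.38, 1.15, 0.9295 and 0.889 CPM in stimulated libraries, against 2.01, 2.25, 3.098, 1.47 and 3.13 CPM in unstimulated ones. Both sets overlapped, and its log2 fold change of -0.99 ± 0.50 did not pass (adjusted p = 0.2, edgeR).

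The pore formers, which open the mitochondrial membrane, did not pass the test. Bax stood at 3.97, 7.63, 6.397, 9.16 and 7.51 CPM in stimulated spleen, against 6.29, 7.74, 5.89, 6.96 and 7.29 CPM in unstimulated spleen, with a log2 fold change of -0.01 ± 0.28 (adjusted p = 0.98, edgeR, n = 5 each). Bak1 stood at 7.27, 6.05, 9.65, 8.499 and 4.64 CPM in stimulated libraries, against 8.36, 9.85, 7.25, 15.2 and 12.3 CPM in unstimulated ones, with a log2 fold change of -0.59 ± 0.29 (adjusted p = 0.18, edgeR). For both genes the 2 groups overlapped in CPM.

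The calls of Mcl1 and Bcl2l11 were the least firm. Leaving out 1 library ended the Mcl1 call in 8 of 10 cases and the Bcl2l11 call in 6 of 10, and limma voom with quality weights called neither, at 0.51 ± 0.20 and 0.88 ± 0.32 on the log2 scale. A fit that pooled its spread over all 7 groups, brain libraries included, called none of the 10 members, with fold changes of the 7 called members between -1.17 and 3.62. Beside these changes, 3 of 5 B cell markers and 2 of 7 antigen-presenting cell markers were called higher in stimulated spleen. Of 8 CD8 T cell markers 1 was called higher and 1 lower. Of 2 tested choroid plexus, neuron and glia markers 1 was called higher. That list summed to 46.9 to 71.7 CPM in stimulated libraries and 37.1 to 45.4 CPM in unstimulated ones, with no overlap. B cell markers summed to 160.4 to 351 CPM in stimulated libraries and 128 to 413 CPM in unstimulated ones. Markers of antigen-presenting cells summed to 201 to 531 CPM in stimulated libraries and 134 to 239.9 CPM in unstimulated ones. Microglia and macrophage markers, 1 of 8 tested called lower, summed to 52.9 to 86.0 CPM in stimulated libraries and 102 to 145 CPM in unstimulated ones. The mitochondrial share of counts was 14.8 to 20.8% in stimulated spleen, against 10.8 to 13.3% in unstimulated spleen, with no overlap, and library 40, the highest for both Bcl2a1 copies, had the highest share. Their part in the result was not tested.

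**Figure D2:**
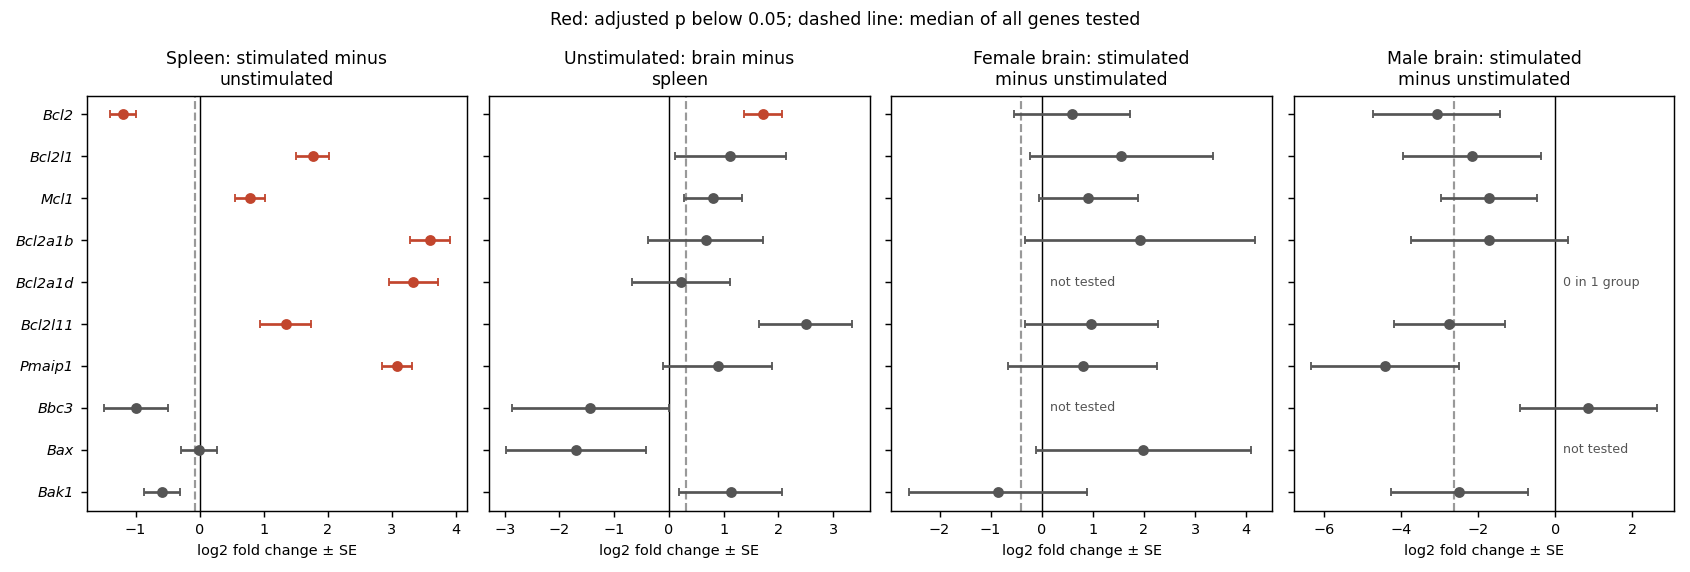
Log2 fold change ± SE of each member in 4 comparisons, with calls in red and the median of all genes tested as a dashed line; members with 0 counts in every library of 1 group, or too few counts to test, have no point. Points of the spleen comparison have short bars and 7 calls, those of brain stimulation have long bars, and in male brain 7 of 8 points lie between -4.42 and -1.71, around the median of all genes of -2.62.

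Per length, in TPM, the transcript abundances that the authors deposited from RSEM, the make-up of the family changed with stimulation. The 4 Bcl2a1 copies together held 90.6 to 92.7% of the family's summed TPM in stimulated spleen, against 57.2 to 77.9% in unstimulated spleen. Mcl1 held 2.73 to 4.04% in stimulated libraries, against 11.7 to 19.2% in unstimulated ones, and Bcl2 held 0.0761 to 0.181%, against 1.25 to 3.45%. The family's summed TPM ran from 1242 to 2511 in stimulated spleen, against 302 to 487 in unstimulated spleen. Bcl2 binds and restrains the Bcl2l11 protein, and the ratio of their TPM was 0.0683 to 0.257 in stimulated libraries, against 1.10 to 3.17 in unstimulated ones, with no overlap. By median TPM, the order in stimulated spleen was Bcl2a1b, Bcl2a1d, Mcl1, Bcl2l1, Pmaip1, Bcl2l11, Bax, Bak1, Bcl2 and Bbc3, while in unstimulated spleen it was Bcl2a1b, Bcl2a1d, Mcl1, Bax, Bak1, Bcl2, Bcl2l1, Bcl2l11, Pmaip1 and Bbc3. On this scale the median of Mcl1 hardly differed, at 56.6 TPM in stimulated and 56.9 TPM in unstimulated spleen. In CPM its median was 96.7 in stimulated and 56.7 in unstimulated spleen. Bax, which overlapped in CPM, stood at 4.21 to 11.33 TPM in stimulated and 11.45 to 14.97 TPM in unstimulated spleen, with no overlap. Bcl2l1, apart in CPM, overlapped in TPM, at 12.63 to 34.36 against 7.3 to 15.54. The test scaled the spleen libraries alone, while printed CPM were scaled over all 35 libraries. The CPM scaling factors were 0.905 to 1.116 in stimulated and 1.631 to 1.757 in unstimulated spleen. Their part was not tested.

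**Figure D3:**
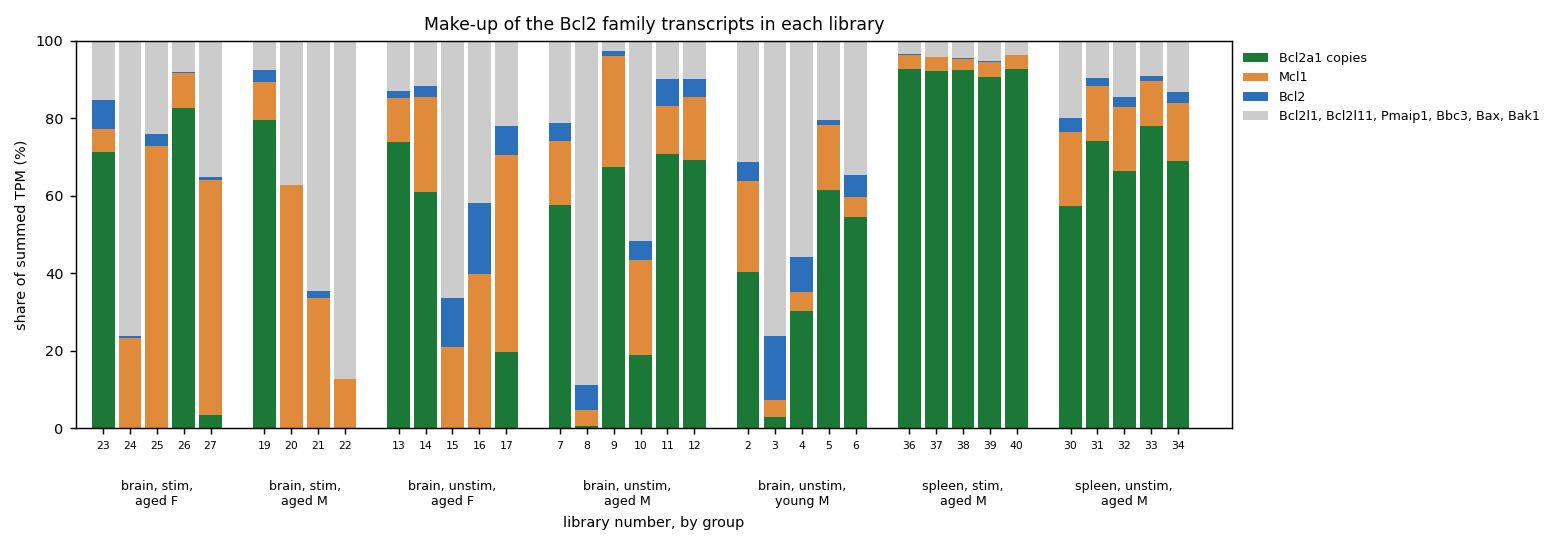
Share of the summed TPM of the family (10 members plus Bcl2a1a and Bcl2a1c) held by the Bcl2a1 copies, Mcl1, Bcl2 and the other 6 members in each library, grouped; bars of 1 library add to 100%. Stimulated spleen libraries are alike, with 90.6 to 92.7% from the Bcl2a1 copies, while the share in brain libraries runs from 0 to 82.5%.

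Genes around the family were read from 8 lists, chosen with earlier results of these data known. In stimulated spleen all 11 genes of the NF-kB list, the pathway known to drive Bcl2a1 and Bcl2l1, were called higher, with a median log2 fold change of 2.199 against -0.07 over all genes. Nfkbid, a nuclear IkB protein, averaged 624 ± 358 CPM in stimulated and 4.83 ± 0.803 CPM in unstimulated spleen (SD, n = 5 each), and Nfkbiz, another, averaged 837 ± 323 CPM in stimulated and 16.4 ± 2.49 CPM in unstimulated spleen. Of 6 caspase inhibitors only Birc3 (cIAP2) was called, at a log2 fold change of 1.91 ± 0.28 (adjusted p = 0.00046, edgeR), and it rose.

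Death receptor genes split, with 3 of 10 higher and 1 lower. The receptor gene Tnfrsf10b rose by 2.83 ± 0.47 and Fasl, the ligand of Fas, by 1.55 ± 0.29 on the log2 scale, while Casp8, the caspase that death receptors start, fell by 0.70 ± 0.18. In the list of p53 and FOXO genes 2 of 10 rose: Cdkn1a, the cell cycle inhibitor p21, averaged 16.02 ± 12.6 CPM in stimulated and 0.2601 ± 0.269 CPM in unstimulated spleen, and Foxo1 rose by 0.84 ± 0.18. Huwe1, a ligase that marks Mcl1 for decay, was the only one of 5 tested genes of Mcl1 turnover to be called, higher by 0.59 ± 0.11. Among 7 survival cytokine receptors, Il4ra rose by 2.48 ± 0.31 and Il21r by 1.68 ± 0.27, while Il7r, whose signal maintains Bcl2, fell by 0.84 ± 0.20. Of the other Bcl2 family genes 11 of 17 were tested, and the copy Bcl2a1c alone was called, higher by 2.55 ± 0.54.

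Brain was set against spleen in unstimulated cells of aged males. Bcl2 was the 1 member of 10 called, and it was higher in brain, where 7.37% of all 11040 genes tested were called and 3.35% were called higher. Its lowest, median and highest levels were 98.9, 142 and 284 CPM in 6 unstimulated brain libraries, against 49.5, 45.1, 43.3, 31.1 and 47.004 CPM in the 5 unstimulated spleen libraries. No brain library fell into the spleen range, and library 8 was the highest. The log2 fold change was 1.72 ± 0.35 (adjusted p = 0.0049, edgeR, n = 6 and 5), and it ran from 1.51 to 1.83 when each library was left out in turn, the lowest without library 8. The fit over all 7 groups gave 1.92 ± 1.01 and no call (adjusted p = 0.43, against 0.00015 to 0.43 over all alternatives). Tissue and the format of the sample titles cannot be told apart, as brain titles are hyphenated here and spleen titles are not. The set of S numbers differs with tissue as well and cannot be told apart from it.

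The other 9 members spread widely in unstimulated brain. Bcl2l11 had a larger fold change than Bcl2, at 2.50 ± 0.85, but did not pass (adjusted p = 0.11, edgeR); its lowest, median and highest levels were 11.96, 28.4 and 284 CPM in brain, against 11.5, 10.6, 15.5, 6.19 and 10.1 CPM in spleen. The brain libraries reached into the spleen range and 1 of them, library 8, stood far above. DESeq2 called Bcl2l11 higher in brain. Mcl1 had 22.2, 90.05 and 306 CPM in brain as lowest, median and highest, against 52.2 to 60.3 CPM in spleen, and a log2 fold change of 0.81 ± 0.53. Fold changes of the remaining 7 ran from -1.70 ± 1.28 for Bax to 1.13 ± 0.94 for Bak1, none of them called, around a median of 0.31 over all genes.

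Neighbouring lists differed between the tissues as well. Tnfaip3 (A20), an inhibitor of NF-kB signalling, averaged 1720.1 ± 361 CPM in unstimulated brain and 69.9 ± 4.53 CPM in unstimulated spleen, and 3 of 11 genes of the NF-kB list were called higher in brain. Il4ra and Il21r were 2 of 3 survival cytokine receptors called higher of 7, at 2.67 ± 0.43 and 1.85 ± 0.38. Fasl at 1.91 ± 0.48 and Tnfsf10 (TRAIL) at 1.66 ± 0.47 were the 2 called higher of 10 genes of death receptors, and 1 was called lower. None of 15 mitochondrial death genes, 6 caspase inhibitors, 10 p53 and FOXO genes, 5 genes of Mcl1 turnover or 8 other Bcl2 family genes was called. Beside these values, 3 of 8 CD8 T cell markers were called higher in brain, their sum being 3459 to 5506 CPM in brain, against 1837 to 2386 CPM in spleen, and 1 of 3 tested choroid plexus, neuron and glia markers was higher too. Choroid plexus, neuron and glia markers summed to 68.6 to 671 CPM across the brain libraries, against 37.1 to 45.4 CPM for those of spleen. Called lower in brain were 1 of 3 tested B cell, 1 of 10 microglia and macrophage and 1 of 7 antigen-presenting cell markers. B cell markers summed to 0.38 to 27.9 CPM in brain libraries, against 128 to 413 CPM in spleen ones, with no overlap. The part of these marker differences in the result was not tested.

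Single brain libraries differed in which member they held. Library 8 had 284 CPM of Bcl2 and 284 CPM of Bcl2l11, the most of both in unstimulated aged male brain, yet only 15, 3, 2 and 1 counts of Bcl2a1b, Bcl2a1d, Pmaip1 and Bax. Library 9 had 557 CPM of Bcl2a1b and 306 CPM of Mcl1, but 2 counts of Bcl2l1 and none of Bax or Bbc3. Library 5 of young males had the most Bcl2a1b and Bcl2l11 of its group, at 342 and 213 CPM, with no count of Bcl2a1d. Library 8 had the lowest total of the unstimulated aged male brain libraries, at 10.3 M counts, while library 9 had 16.1 M and library 5 had 12.8 M. Markers of microglia and macrophages, cells known to express Bcl2a1 genes, summed to 464 CPM in library 9 and 215 CPM in library 8, and those of antigen-presenting cells to 313 and 227 CPM, while library 7, with the most Bcl2a1d of aged male brain, had 9.54 and 82.9 CPM of the same lists. Their part in these values was not tested. The relative SD (SD over mean) of Bcl2a1b was 1.41 in young male brain, 1.49 in aged female brain and 1.67 in aged male brain without stimulation, against 0.37 in unstimulated spleen, and that of Bcl2 was 0.54, 0.33 and 0.42, against 0.16 in spleen.

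Within the Bcl2a1 family the brain libraries often held 1 copy almost alone. Bcl2a1b made up 72.3, 63.8, 65.5, 69.8 and 62.9% of the counts of the 4 copies in stimulated spleen libraries, against 57.8, 45.98, 53.96, 63.3 and 64.8% in unstimulated spleen ones. In unstimulated aged male brain the share was 23.5, 83.3, 96.2, 3.11, 26.3 and 79.9% in libraries 7 to 12. In unstimulated brain it was 96.2, 72.2, 3.34, 100 and 93.7% in young males, and 41.7, 100 and 1.85% in the 3 aged female libraries with any count. Library 9 had 8427 counts of Bcl2a1b among 8756 of all copies, and library 10 had 21 among 675. Sharing of reads between copies applies to all libraries, so the split of 1 library is uncertain.

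**Figure D4:**
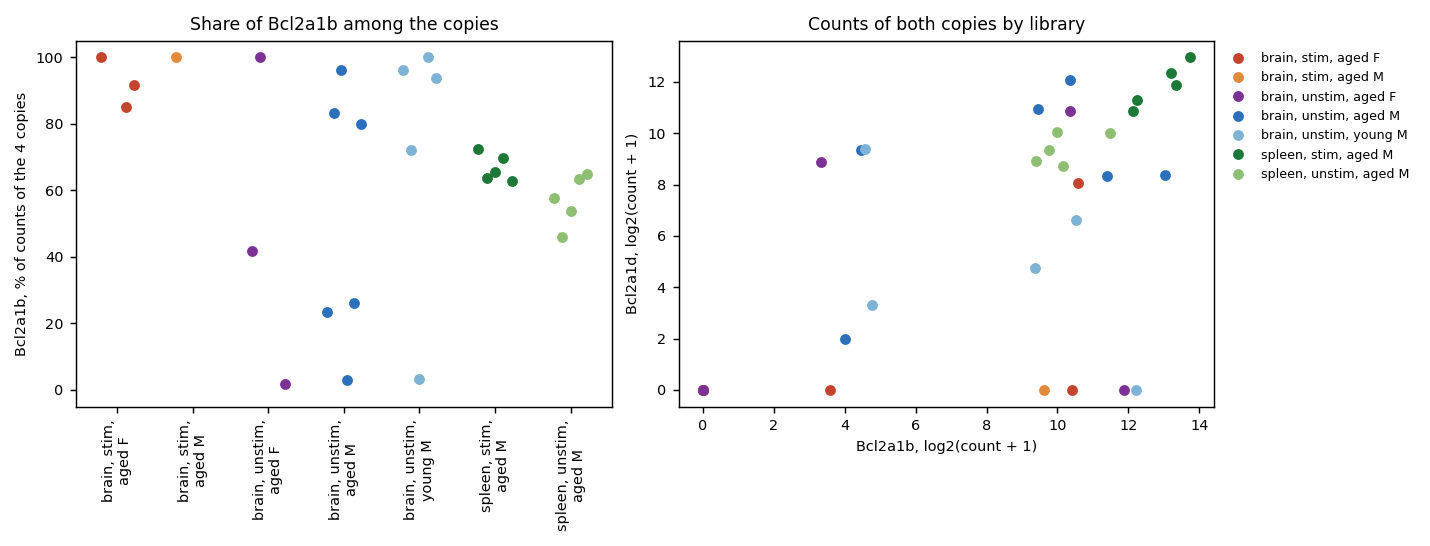
Left, the percentage of Bcl2a1b among the counts of the 4 Bcl2a1 copies in each library with any count, by group; right, counts of Bcl2a1d against Bcl2a1b as log2(count + 1). Spleen libraries keep to 46.0 to 72.3% and lie along a diagonal, while brain libraries run from 1.85 to 100% and several sit on an axis.

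Stimulation of male brain cells gave a different picture, in which most members were at or near 0. Stimulated and unstimulated male brain libraries lie in different sets of S numbers, which cannot be told apart from stimulation. Bcl2a1d was the only one of 9 tested members called, and it was lower, where 38.1% of all 7540 genes tested were called and 36.4% were called lower. It had 0 counts in all 4 stimulated male brain libraries, against 0.353, 26.4 and 164 CPM as lowest, median and highest in 6 unstimulated ones. It passed the low-count filter through unstimulated libraries alone, so it could only come out lower. The adjusted p was 0.0097 (edgeR, n = 4 and 6). Its unstimulated mean of 54.3 CPM was 34.1-fold the mean floor of 3 counts per stimulated library. Unstimulated library 8, at 0.353 CPM, lay below the floor of every stimulated library, 0.569 to 2.99 CPM. The call ended when the copies were summed, at -2.26 ± 1.95 (adjusted p = 0.41, against 3e-06 to 0.41 over the alternatives), and library 19 alone held 792 counts of Bcl2a1b. It ended too without libraries 20, 21 and 22, which leaves 1 stimulated library assumed to vary like the others.

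Of the 9 tested members 8 had a negative fold change, with a median of -2.49 on the log2 scale, against -2.62 over all genes. Bcl2 stood at 67.2, 0, 6.96 and 0 CPM in stimulated male brain libraries, against 98.9 to 284 CPM in unstimulated ones, with no overlap. Its log2 fold change of -3.08 ± 1.64 did not pass (adjusted p = 0.16, edgeR), but it was called without library 19, with DESeq2, with limma voom and in the fit of all 7 groups, at -5.97, -3.11, -6.13 and -3.12. Pmaip1 had 10 counts in library 19 and 0 in libraries 20 to 22, against 0.235 to 28.6 CPM in unstimulated brain, at -4.42 ± 1.91 (adjusted p = 0.081, edgeR), and it was called by DESeq2, by limma voom, in the fit of all 7 groups and without library 8 or 19. Mcl1 was detected in every stimulated library, at 38.9, 62.3, 18.1 and 9.96 CPM, against 22.2 to 306 CPM in unstimulated ones, with a log2 fold change of -1.71 ± 1.25 that was not called. Bcl2l11 was detected in all 4 stimulated libraries too, at 11.4, 8.08, 1.39 and 15.9 CPM, while Bcl2l1, Bak1 and Bbc3 were each at 0 in 2 of them and at most at 17.1, 10.5 and 4.93 CPM. Bax had 0 counts in all 4 stimulated libraries and was not tested.

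Around the family, Cycs, which encodes the cytochrome c released through the pore, and Birc2 had 0 counts in all 4 stimulated male brain libraries, against 59.7 ± 76.97 and 148 ± 124 CPM in unstimulated brain (SD, n = 6). In all, 5 of 10 mitochondrial death genes and 3 of 5 genes of Mcl1 turnover were called lower, while 1 of 11 NF-kB genes was called, Nfkbia, which rose by 2.96 ± 1.09. Nfkbia encodes the inhibitor that NF-kB itself induces. The mitochondrial share of counts was 38.5 to 67.5% in stimulated male brain libraries, against 9.32 to 10.5% in unstimulated ones, and 5 of 8 CD8 T cell markers were called lower. Of other cell types, 3 of 5 antigen-presenting cell and 2 of 4 microglia and macrophage markers were called lower, and 1 of 3 choroid plexus, neuron and glia markers was called higher. Microglia and macrophage markers summed to 0 to 77.7 CPM in stimulated male brain, against 9.54 to 464 CPM in unstimulated male brain. The part of these differences in the result, the Bcl2a1d call included, was not tested.

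In stimulated female brain no member of 8 tested was called by edgeR, none had an unadjusted p below 0.05, and DESeq2 and limma voom called none, where 6.09% of all 6305 genes tested were called. Bcl2 stood at 435, 10.9, 39.8, 27.5 and 28.7 CPM in stimulated libraries, against 54.5, 88.7, 80.3, 61.4 and 123 CPM in unstimulated ones. Library 23 was far above the other 4, which all lay below the unstimulated range, and the log2 fold change of 0.59 ± 1.14 turned to -1.69 without it. Mcl1 stood at 46.97, 67.1, 117, 104 and 249.8 CPM in stimulated libraries, against 53.5, 88.1, 26.5, 43.8 and 108 CPM in unstimulated ones, an overlap with a log2 fold change of 0.91 ± 0.97. Bcl2a1b stood at 379, 0, 0, 546 and 11.7 CPM in stimulated libraries, against 90.4, 180.1, 0, 0 and 0.516 CPM in unstimulated ones, with libraries at 0 in both groups. Bax came from library 27 alone, at 103 CPM with the other 4 at 0, against 1.33 to 12.9 CPM in unstimulated libraries. Stimulated libraries 26 and 27, whose titles are not hyphenated, lie in another set of S numbers than the rest of both female groups. With hyphenated titles only, where Bax was at 0 in every stimulated library, its fold change turned negative and was not called.

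The remaining members overlapped between the female groups. Bcl2l11 stood at 2.25, 114, 8.901, 36.1 and 18.1 CPM in stimulated libraries, against 32.6, 15.5, 10.3, 9.38 and 28.6 CPM in unstimulated ones. Pmaip1 stood at 47.2, 18.8, 2.003, 5.004 and 0 CPM in stimulated libraries, against 13.6, 9.17, 5.82, 6.14 and 12.3 CPM in unstimulated ones. Library 23 was the highest for Pmaip1 and the lowest for Bcl2l11, with libraries on both sides of the unstimulated range for each gene. Bbc3 was detected in 4 of 5 stimulated libraries at up to 27.4 CPM, against 3 of 5 unstimulated ones at up to 0.617 CPM, too few counts to test. In the NF-kB list 3 of 11 genes were called higher, among them Nfkbia at 3.82 ± 0.81 and Nfkbid at 3.41 ± 0.96 on the log2 scale. Mitochondrial genes took 42.1 to 69.7% of the counts in stimulated female libraries, against 8.48 to 12.8% in unstimulated ones, and 2 of 3 tested choroid plexus, neuron and glia markers were called higher. Those markers summed to 376 to 987 CPM in stimulated female libraries, against 37.5 to 75.4 CPM in unstimulated ones, with no overlap. The part of both in the result was not tested.

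Stimulated brain was also set against stimulated spleen in aged males, where 48.5% of all 9135 genes tested were called and 46.7% were called lower in brain. Title format and the set of S numbers differ with tissue here too and cannot be told apart from it. Of 9 tested members 3 were called, all lower in brain: Bcl2a1d, Pmaip1 and Bax. Being at or near 0 in brain, these passed the low-count filter through spleen libraries alone, so they could only come out lower. Bbc3 had too few counts to test. DESeq2 called Mcl1 and Bcl2a1b as well, and limma voom Bcl2l1 and Bcl2a1b. Bcl2a1d was at 0 in all 4 brain libraries and at 246 to 782 CPM in spleen (adjusted p = 0.00043, edgeR, n = 4 and 5). Its spleen mean was 266-fold the mean floor of 3 counts per brain library. Pmaip1 averaged 0.474 ± 0.949 CPM in stimulated brain and 50.97 ± 11.8 CPM in stimulated spleen (adjusted p = 0.0044, edgeR), and no library of brain reached the spleen range. Bax was at 0 in all brain libraries and at 3.97 to 9.16 CPM in spleen, with a spleen mean 4.35-fold the mean floor in brain (adjusted p = 0.00043, edgeR). Bcl2 was not called, with 18.5 ± 32.6 CPM in brain, against 19.3 ± 5.03 CPM in spleen, and its log2 fold change of 0.14 ± 1.47 depended on the libraries and the scaling. It was -0.06 with DESeq2 size factors and -2.78 without library 19, neither of them called, and 1.86 ± 0.37, called higher in brain, without libraries 20, 21 and 22 (adjusted p = 0.0026, edgeR, against 0.0026 to 1.0 over the alternatives), a fit that leaves 1 stimulated brain library. Beside these calls, 5 of 5 B cell, 5 of 7 antigen-presenting cell, 1 of 8 CD8 T cell and 1 of 3 tested microglia and macrophage markers were called lower in brain. Called higher was 1 of 2 tested choroid plexus, neuron and glia markers. CD8 T cell markers summed to 183 to 583 CPM in brain, against 1410 to 2445 CPM in spleen. Those of choroid plexus, neuron and glia summed to 91.7 to 1239 CPM in brain, against 46.9 to 71.7 CPM in spleen. B cell markers summed to 0 CPM in all 4 stimulated brain libraries, against 160.4 to 351 CPM in stimulated spleen, and those of antigen-presenting cells to 0 to 39.5 CPM in brain, against 201 to 531 CPM in spleen. The mitochondrial share of counts was 38.5 to 67.5% in brain, against 14.8 to 20.8% in spleen, and the part of these differences in the result was not tested. Over all genes the median log2 fold change was -3.02, against -2.55 over the members. With the 4 copies summed the Bcl2a1 call ended, at -4.93 ± 2.27 (adjusted p = 0.11, against 3.1e-23 to 0.11 over the alternatives).

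The difference between the responses itself, brain minus spleen, was tested as an interaction over the 4 groups of aged males. The male brain response runs across sets of S numbers and the spleen response within a single set. The set therefore cannot be told apart from this difference, and the same applies to the interaction by sex. The response of the members was lower in brain for 5 of 10, where 37.8% of all 12117 genes tested were called and 35.7% were called lower. The median was -4.15 over the members and -4.04 over all genes. Pmaip1 had a difference of -7.40 ± 1.56 (adjusted p = 0.00088, edgeR), Bcl2l11 of -4.29 ± 1.31 (adjusted p = 0.014) and Mcl1 of -2.59 ± 0.99 (adjusted p = 0.043). Bcl2a1d and Bax were called as well (adjusted p = 3.5e-05 and 0.022), with 1 group at 0. The Mcl1 call ended in 14 of 20 cases with 1 library left out and under every alternative but those without mitochondrial genes or with summed copies. The Bcl2l11 call ended with DESeq2 size factors and with limma voom, at -3.09 ± 1.27 and -3.06 ± 1.25, and the Bax call with DESeq2, with limma voom and in the fit of all 7 groups. Without libraries 20, 21 and 22 the members called were Bcl2a1d and Bak1. Bcl2, which fell in stimulated spleen, had a difference of -1.93 ± 1.37 that edgeR did not call with all libraries. It was called by limma voom, at -4.45, and without library 19, at -4.87. The same test called 6 of 8 CD8 T cell, 2 of 5 B cell, 3 of 7 antigen-presenting cell and 2 of 10 microglia and macrophage markers lower, whose part in the result was not tested. The interaction by sex within brain called none of the 10 members by edgeR (2.6% of all 10026 genes tested), although 2 members had an unadjusted p below 0.05 and DESeq2 called Bcl2a1d.

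Age made no difference that passed the test in unstimulated male brain: none of 10 members was called by edgeR, where 0.0% of all 8068 genes tested were called, and no member had an unadjusted p below 0.05 or a call by DESeq2 or limma voom. Bcl2 had 98.9, 142 and 284 CPM in aged males as lowest, median and highest, against 73.2, 238, 197, 67.2 and 127 CPM in young males, with a log2 fold change of 0.25 ± 0.54. The ranges overlapped almost fully. Pmaip1 had 0.235, 8.34 and 28.6 CPM in aged males, against 96.5, 2.12, 4.46, 42.3 and 1.73 CPM in young males, where libraries 2 and 5 were high, with a log2 fold change of -1.20 ± 1.39. Bcl2a1d had the largest fold change upward with age, 2.02 ± 1.54, and Bax the largest downward, -2.05 ± 1.75. With SEs of 0.54 to 1.79 on the log2 scale over the members, differences of that size were not detectable. The 6 unstimulated aged male brain libraries also served in the comparisons by tissue, sex and stimulation, so these share them.

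Sex made no difference that passed the test either. In unstimulated brain, sex and the set of S numbers cannot be told apart. In unstimulated aged brain none of 10 members was called by edgeR, DESeq2 or limma voom and none had an unadjusted p below 0.05, where 0.15% of all 8691 genes tested were called. Bcl2 stood at 54.5, 88.7, 80.3, 61.4 and 123 CPM in females, against 98.9, 142 and 284 CPM as lowest, median and highest in males, with a log2 fold change of -0.84 ± 0.47. Females 13 to 16 lay below every male library, and female library 17 lay among the males. Bbc3 was near 0 in both sexes, at 0 to 0.617 CPM in females and 0 to 2.61 CPM in males. In stimulated brain 6 members could be tested between the sexes, none was called by edgeR, DESeq2 or limma voom and none had an unadjusted p below 0.05, where 0.0% of all 3159 genes tested were called. A fit over all 7 groups called Bcl2a1d, Pmaip1 and Bax there, higher in females. Stimulated female libraries 26 and 27 lie in another set of S numbers than the other stimulated brain libraries.

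Across the 7 groups, each gene had its own order of levels. Median Bcl2 ran from 142 CPM in unstimulated aged male brain through 127 in young male and 80.3 in aged female brain, 45.1 in unstimulated spleen, 28.7 in stimulated female brain and 18.7 in stimulated spleen to 3.48 in stimulated male brain. On this order only the step between unstimulated female brain and unstimulated spleen separated neighbours without overlap. By median, the Bcl2a1 copies and Pmaip1 were highest in stimulated spleen, with a gap to the next group in the order, although single libraries of other groups reached its range for Bcl2a1b and Pmaip1; all later neighbours overlapped. For Bcl2l1, Mcl1, Bcl2l11, Bbc3, Bax and Bak1 every pair of neighbours in the order overlapped.

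The genes whose pattern came closest were sought over the 26 libraries other than stimulated brain, by Pearson correlation of log2(CPM + 1) among 4577 genes with a mean of at least 20 CPM. The libraries share tissue, depth and scaling, so the values are descriptions. Bcl2 came closest to Notch2 (r = 0.89), which encodes a signalling receptor, Pik3r1 (r = 0.88), a regulatory subunit of PI3 kinase, and Itm2b (r = 0.87). For Bcl2a1b the closest was Plek at 0.79, for Bcl2a1d Maf at 0.75, which encodes a transcription factor, for Bcl2l11 Cxcr4 at 0.75, for Pmaip1 Ppp2r2a at 0.78 and for Mcl1 Rngtt at 0.74. The copies Bcl2a1b and Bcl2a1d were thus not among each other's closest 3 genes.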

How the data were processed

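Per the submitters' processing notes, the authors used Bowtie2 2.2.0 for alignment to mm10 and RSEM 1.2.12 for quantification. Neither annotation release nor strand setting is stated in those notes. RSEM's expected counts and TPM were deposited per library, as the file headers show, and a series table deposited by the authors holds 38924 genes as whole-number counts, within 0.5 of those expected counts. RSEM shares reads among near-identical copies, so single values of the Bcl2a1 genes are uncertain, and without a stated strand so are overlapping or antisense genes.

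Counts were tested in R 4.3.3 with edgeR 4.0.16: filterByExpr with a minimum count of 10, TMM scaling, robust glmQLFit and two-sided glmQLFTest on the groups compared only, with Benjamini-Hochberg adjustment over all genes tested and a threshold of 0.05. SE is the fold change over the root of F. CPM uses TMM over all 35 libraries; TPM served only to compare genes per length. Totals of 1.16 to 24.97 M counts set the precision, so 1 count is worth more CPM in shallow libraries. Tests of 1 group against another, not the interactions, were run on simulated counts. These had the same spread in both groups, unlike many groups here. Positions come from GENCODE M21; Bcl2a1d and Bcl2a1a were matched by symbol, since their identifiers differ there. Promoters come from RefSeq.

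Members and lists were chosen with earlier results of these data known. The naming rule took all members, up to 2 genes per list and direction with the largest called change and a mean of at least 5 CPM, and the 3 closest genes of each member with a mean of at least 20 CPM. Single libraries were named after their values were seen. Folds against a group at 0 divide the mean of the other group by the mean floor of 3 counts per library. Alternatives were DESeq2 1.42.0, its size factors, limma 3.58.1 voom, no filter, 1 fit of all groups, no mitochondrial genes, summed copies, title format, libraries lacking sex-linked counts and each library left out. 1 result of the gene lists is not reported here.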

Additional observations from a re-analysis of the deposited data

Results flagged for a closer look

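In 15 of 68 sets of member values with 4 to 6 libraries, 1 library stood far from the rest, 14 of them in brain groups and 1 in spleen. The limit used is passed by chance in about 1 of 20 sets only where values are normally distributed. CPM values here are not, and many of these groups have libraries at 0, where 1 positive library is enough. The rate expected by chance is therefore not known. In stimulated male brain, library 19 held 67.2 CPM of Bcl2, 150.3 CPM of Bcl2a1b and 1.90 CPM of Pmaip1, against at most 6.96, 0 and 0 CPM in the other 3, and library 20 held 17.1 CPM of Bcl2l1, against at most 1.52 CPM. Stimulated female brain had 435 CPM of Bcl2 in library 23, against at most 39.8 CPM in the other 4, 95.8 CPM of Bcl2a1d in library 26 and 103 CPM of Bax in library 27, both against 0 CPM.

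In unstimulated aged male brain, library 9 held 306 CPM of Mcl1 and 557 CPM of Bcl2a1b, against at most 122 and 127 CPM in the other 5, and library 8 held 284 CPM of Bcl2l11, against at most 58.8 CPM. Female library 13 held 126 CPM of Bcl2a1d and 12.9 CPM of Bax, against at most 27.2 and 4.56 CPM in the other unstimulated females, and its antigen-presenting cell markers summed to 180.1 CPM, against 3.03 to 10.7 CPM in those 4. Among young males, library 4 held 57.1 CPM of Bcl2a1d and library 5 held 213 CPM of Bcl2l11, against at most 6.98 and 66.0 CPM. Neutrophil and monocyte markers summed to 422 CPM in library 4, against at most 5.07 CPM in the other young males, and its choroid plexus, neuron and glia markers had the highest sum of the group, 456 CPM. The part of these markers in the values of libraries 13 and 4 was not tested. In stimulated spleen, library 37 held 2.38 CPM of Bbc3, against at most 1.15 CPM.

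The response to stimulation differed between brain and spleen of aged males for 5 members, by an interaction test in edgeR that called 37.8% of all genes tested, and 35.7% of all as lower in brain, with a median of -4.04 on the log2 scale. The difference, brain minus spleen, was -2.59 for Mcl1, which is smaller in size than that median and whose call ended in 14 of 20 cases with 1 library left out, -4.29 for Bcl2l11 and -7.40 for Pmaip1 on the log2 scale. The fitted values of -15.78 for Bcl2a1d and -7.92 for Bax depend on the prior count, since all stimulated brain libraries were at 0, and are no measure of size. The set of S numbers cannot be told apart from any of these differences.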

How the results depend on the processing

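Counts of members called moved under these alternatives. In spleen stimulation, 0 members were called in the fit of all 7 groups, and 5 to 7 with 1 library left out. In male brain stimulation, where 1 was called, DESeq2 and limma voom called 3 each, the fit of all groups 4, summed copies 0 and the fit without libraries lacking sex-linked counts 0. Leaving out 1 library gave 1 to 4 there, with 4 without library 19 and 2 without library 8. Between unstimulated tissues, DESeq2 called 2 and the fit of all groups 0. Between stimulated tissues, DESeq2 and limma voom called 5 each and the fit without libraries lacking sex-linked counts 7. The fit of all groups called 3 between the sexes after stimulation. For the interaction with tissue, DESeq2 size factors and the fit of all groups called 3 each and the fit without libraries lacking sex-linked counts 2; for the interaction with sex, DESeq2 and the fit without a low-count filter called 1 each. The cause was not tested.

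Signs of values that were not called by edgeR turned in some fits. With limma voom, female brain stimulation gave -1.13 for Bcl2, -1.02 for Bcl2l1, -0.70 for Bcl2a1b, -1.15 for Pmaip1 and -3.11 for Bax, unstimulated tissue -1.41 for Bcl2a1b and -0.43 for Bcl2a1d, stimulated tissue -2.75 for Bcl2, age -0.60 for Bcl2a1b, sex without stimulation 0.38 for Pmaip1, and the interaction with sex -0.82 for Bax. In stimulated tissue, Bcl2 was -0.059 with DESeq2, -0.058 with its size factors and -0.033 in the fit of all groups. Bax in spleen was 0.004 with DESeq2 size factors and 0.021 in the fit of all groups. With hyphenated titles only, Bax was -8.85 in female brain stimulation and -1.27 in the interaction with sex, and Bak1 was -0.41 between the sexes after stimulation. That Bak1 value was -0.44 with DESeq2 and with its size factors and -0.021 without mitochondrial genes. Without libraries lacking sex-linked counts, Bcl2a1b was 0.27 in male brain stimulation and Bcl2 0.076 in the interaction with tissue.

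With 1 library left out, signs turned within these ranges: Bax from -0.10 to 0.16 in spleen, Bbc3 from -0.53 to 1.22 in male brain, and in female brain Bcl2 from -1.69 to 0.77, Bcl2l11 from -0.29 to 1.24, Pmaip1 from -0.57 to 0.98 and Bax from -8.72 to 2.69. Between unstimulated tissues Bcl2a1b ran from -0.88 to 0.93 and Bcl2a1d from -0.50 to 0.48, and between stimulated tissues Bcl2 from -2.78 to 0.52. With age, Bcl2l1 ran from -0.62 to 0.093, Bcl2a1b from -1.25 to 1.62 and Bcl2l11 from -1.50 to 0.59. With sex, Bcl2a1b ran from -2.32 to 0.48, Bcl2a1d from -2.85 to 0.083 and Pmaip1 from -0.49 to 0.25 without stimulation, Bak1 from -0.42 to 1.001 with it, and Bax from -1.27 to 10.10 in the interaction.

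Counts over all genes moved by over 1.5 times as follows. Spleen stimulation gave 2080 genes, against 53 in the fit of all groups. Male brain stimulation gave 2875, against 5018 in that fit and 1072 without libraries lacking sex-linked counts. Female brain stimulation gave 384, against 878 with DESeq2, 1399 with limma voom, 704 unfiltered, 2549 in the fit of all groups, 135 with hyphenated titles only and 49 to 596 with 1 library left out. Unstimulated tissue gave 814, against 1546 with limma voom and 1677 unfiltered, and stimulated tissue 4434, against 7903 without libraries lacking sex-linked counts. Age gave 0, against 72 with DESeq2, 25 unfiltered and 1 each with limma voom and in the fit of all groups. Sex gave 13 without stimulation, against 23 with DESeq2, 6 with its size factors, 43 with limma voom, 29 unfiltered and 4 to 15 with 1 library left out (4 without library 12), and 0 with stimulation, against 90 with DESeq2, 21 unfiltered, 2560 in the fit of all groups and 15 without libraries lacking sex-linked counts. The interaction with tissue gave 4577, against 2773 with limma voom. The interaction with sex gave 261 (205 higher, 56 lower), against 1550 with DESeq2, 120 with its size factors (72 higher, 48 lower), 44 with limma voom, 737 unfiltered, 2154 in the fit of all groups, 46 without libraries lacking sex-linked counts and 23 to 377 with 1 library left out.

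No paired analysis was possible because the groups share no replicate numbers. The fit without libraries lacking sex-linked counts was made where stimulated male brain took part. DESeq2 size factors shifted the median log2 value of all genes to -2.46, against -2.62 with TMM, in male brain stimulation, to -3.33, against -4.04, in the interaction with tissue, and to 1.02, against 1.69, in the interaction with sex. In stimulated brain, depth and the number of libraries at 0 limit detection, and a value of 0 there does not show absence.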
